A study of Homo sapiens with 24 samples.

Results

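Expression in Capan1 cells carrying a hairpin against IRAK4 (shIRAK4, 2 arrays) was set against Capan1 cells carrying a scramble hairpin (2 arrays), 4 of the 24 arrays of the series. A gene entered if its detection p-value, which sets its signal against the negative control beads of the array, fell under 0.01 on each array of 1 or both of these groups. This kept 10974 of 34595 rows of the deposited table. Of the kept genes, 9464 were detected on all 4 arrays, 882 entered through shIRAK4 alone and 628 through scramble alone. For every gene that changed, the level in Capan1 cells given only DMSO (2 arrays) was placed beside both. Its position is counted over all changed genes below, and the level itself is printed for some of the genes named.

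Capan1 is an established human pancreatic ductal adenocarcinoma line, grown here in medium with 10% serum, and the series profiled it and a second line, Panc1, on Illumina bead arrays, 12 groups in all with a pair of arrays apiece. The text on the series' design names PANC-1 alone for the hairpin work, whereas the sample labels give hairpin arrays of Capan1 too, and the arrays are taken here as labelled. By the protocols in the labels, shIRAK4 cells first received a pSuperRetroPuro retrovirus with the IRAK4 hairpin and scramble cells the same vector with a scramble sequence, and each passed 48 h of puromycin at 1 ug/mL. Both were then infected with a second virus, pSuperRetroNeoGFP, that carried the scramble sequence in both groups, followed by geneticin at 500 ug/mL for 4 days. DMSO cells received vehicle for 24 h, and no virus or antibiotic selection is described for them, so they differ from both hairpin groups in more than the hairpin. The labels name a single IRAK4 hairpin, and nothing in them tells if paired arrays stem from different cultures. The p-values therefore measure the spread between paired arrays, pooled over all 12 groups, which may be technical. A gene's level below is its background-corrected, quantile-normalized log2 signal. It compares arrays for that gene, not genes with each other, and fewer cells of a type and less RNA per cell cannot be told apart in such bulk RNA.

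IRAK4 is a serine/threonine kinase that the adaptor MYD88 recruits to activated interleukin-1 and Toll-like receptors. It phosphorylates IRAK1, after which TRAF6 and TAK1 (MAP3K7) pass the signal to the IkB kinase complex, IkB alpha (NFKBIA) is degraded, and NF-kB dimers enter the nucleus and switch on chemokine, cytokine and acute-phase genes. In pancreatic cancer cells NF-kB activity is often high without an added stimulus, and IRAK4 has been described as one of the kinases upstream of it.

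The probe for IRAK4 itself gave no usable check of the knockdown. Its log2 level was 4.55 and 4.52 on the shIRAK4 arrays and 4.62 and 4.84 on the scramble arrays, and none of these signals was above background, so IRAK4 was not tested. In DMSO cells it was detected on 1 of 2 arrays, at 4.86 and 5.66. IRAK1, the kinase downstream, had 9.65 and 9.57 with shIRAK4 against 10.48 and 10.43 with scramble, a difference of -0.84 ± 0.29 (SE) that did not pass the test (limma adjusted p = 0.0914). It passed under 2 alternatives, with the replicate number as a block (adjusted p = 0.0413) and with the background estimated from all rows (difference -1.20, adjusted p = 0.017), and its adjusted p ranged from 0.017 to 1 over all alternatives.

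Arrays of the series carried 10015 to 12090 detected genes, and 13 of 14 ductal markers, among them KRT19, EPCAM, CDH1 and MUC1, were detected on both arrays of the shIRAK4, scramble and DMSO groups. The summed linear level of these 14 ranged over 46294 to 55383 with shIRAK4, 51390 to 56989 with scramble and 55854 to 58021 with DMSO. Of 15 immune markers CD68 and LYZ were detected on both arrays of the shIRAK4 and scramble groups, while PTPRC, CD3E, MS4A1 and TYROBP were not detected. Of 13 fibroblast markers ACTA2 alone was detected on both arrays, with COL1A2, DCN and LUM undetected, and of 9 acinar and islet markers PRSS1 alone, with INS and AMY2A undetected. Of 9 endothelial markers 3 were detected on both arrays with shIRAK4 and 2 with scramble, and CDH5 and KDR on none. The 2 shIRAK4 arrays differed more from each other than most pairs. The SD between arrays of a group was 0.326 for shIRAK4, 0.180 for scramble and 0.152 for DMSO. Across genes, shIRAK4 replicate 1 correlated with replicate 2 at r = 0.9755, below its r of 0.9783 with shIRAK1 replicate 2. Replicate 2 likewise correlated at 0.9812 with replicate 2 of the double knockdown, shIRAK1+4, whose own 2 arrays reached only 0.9688.

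With shIRAK4, 809 of the 10974 tested genes changed against scramble (7.37% of those tested, limma adjusted p under 0.05): 454 rose (4.14%) and 355 fell (3.23%). The rises were the larger changes. Of them, 241 were 2-fold or more and 65 were 4-fold or more, compared with 73 and 6 of the falls. The median difference over all tested genes was -0.04 on the log2 scale. The arrays of the 2 groups did not overlap for any of the 809 genes, a property shared by 51% of all tested genes. The count depends on the estimate of spread and on scaling: it was 293 with the 12 Capan1 arrays alone, 77 with the 8 Capan1 hairpin arrays alone, 520 with array weights, and 260 or 286 without scramble replicate 1 or 2. Median scaling in place of quantile normalization gave 425 calls, of which 313 (73.6%) were rises, where quantile normalization gave 56.1%.

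Inflammatory genes that NF-kB controls were among the largest rises. Of the 49 listed inflammatory and NF-kB target genes in the table, 42 entered the test, 33 rose and none fell, with a median difference of 2.03 against -0.04 for all tested genes. Of the 42, 11 entered through shIRAK4 alone, which favours a higher level there. Entry does not fix the level for rows of several probes, SOD2 among them, whose detection p-value does not track the signal. Among the 30 detected in both groups 23 rose, with a median of 2.09. The list is no independent evidence of a direction, since these data were known when it was drawn up. The count of 33 became 18 with the 8 hairpin arrays alone and 19 when a change above 1.5-fold was required.

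The chemokines CCL2 and CCL20 had the largest rises of all tested genes. CCL2, which attracts monocytes, had log2 levels of 12.04 and 11.52 on the shIRAK4 arrays, 4.95 and 5.45 on the scramble arrays and 10.53 and 10.54 on the DMSO arrays. Its scramble signals thus lay at the detection limit, with 1 of 2 arrays detected, while its shIRAK4 level stood 6.58 ± 0.37 higher (adjusted p = 9.83e-09). For CCL20, the ligand of CCR6 on dendritic cells and T cells, the levels were 11.33 and 11.56 with shIRAK4, 5.57 and 5.82 with scramble and 12.18 and 11.99 with DMSO. CCL20 thus rose by 5.75 ± 0.80 (adjusted p = 2.95e-04), with the DMSO level slightly above the shIRAK4 level. CXCL1, a neutrophil chemokine that binds CXCR2, showed the same order, at 10.79 and 11.03 with shIRAK4, 7.04 and 7.56 with scramble and 11.20 and 11.44 with DMSO (difference 3.61 ± 0.57, adjusted p = 9.26e-04). IL8 (CXCL8), another CXCR2 ligand, had 11.62 and 11.11 with shIRAK4 against 8.34 and 8.86 with scramble. In DMSO cells it stood at 11.66 and 11.84, so the scramble arrays were the low ones, and the rise with shIRAK4 was 2.77 ± 0.49 (adjusted p = 0.00224).

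**Figure D1:**
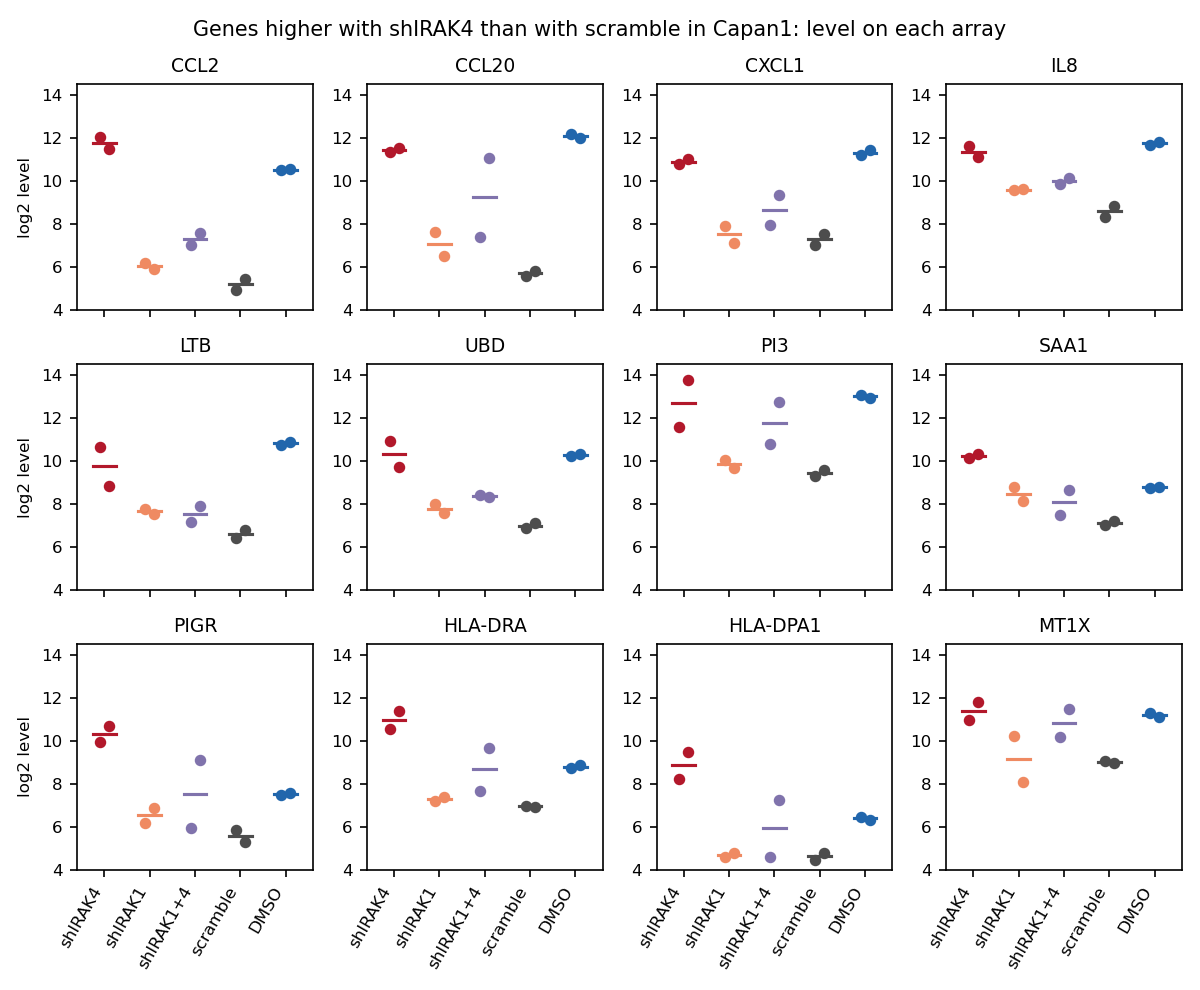
Log2 level of 12 genes that rose with shIRAK4, on each array (points) with the group mean (bar), for the Capan1 groups shIRAK4, shIRAK1, shIRAK1+4, scramble and DMSO. For CCL20 the shIRAK4 arrays sit at 11.33 and 11.56 and the scramble arrays at 5.57 and 5.82, while the shIRAK1+4 arrays lie apart from each other at 7.38 and 11.10.

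Cytokines, acute-phase proteins and antimicrobial products were among the rises too. UBD, a ubiquitin-like modifier induced by tumour necrosis factor and interferon gamma, had 10.92 and 9.71 with shIRAK4 against 6.88 and 7.10 with scramble (3.33 ± 0.27, adjusted p = 1.08e-06). Lymphotoxin beta, LTB, was at 10.67 and 8.84 with shIRAK4 against 6.39 and 6.76 with scramble (3.18 ± 0.55, adjusted p = 0.00182). DMSO cells had LTB at 10.76 and 10.88, level with the higher of the shIRAK4 arrays. The elastase inhibitor PI3 was the most uneven of these genes between the shIRAK4 arrays, at 11.57 and 13.78 against 9.32 and 9.58 with scramble, and still rose (3.23 ± 0.55, adjusted p = 0.00163). Complement factor B, CFB, stood at 12.26 and 12.53 with shIRAK4 against 9.12 and 8.78 with scramble (3.44 ± 0.74, adjusted p = 0.0087). SERPINA3, an acute-phase protease inhibitor, averaged 8.30 with shIRAK4 and 5.01 with scramble, where neither array detected it, so it was at least 8.86-fold higher (adjusted p = 0.0141). PDZK1IP1, a small membrane protein found in many carcinomas, was likewise detected only with shIRAK4, at a mean of 9.19 against 4.81, and was at least 16.4-fold higher (adjusted p = 7.83e-05).

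Serum amyloid and calgranulin genes went above both other groups. SAA1 was at 10.15 and 10.32 with shIRAK4, 7.03 and 7.19 with scramble and 8.75 and 8.78 with DMSO, 3.13 ± 0.26 over scramble (adjusted p = 1.37e-06) and 1.47 over DMSO (adjusted p = 0.0017). SAA4 had 10.16 and 9.04 with shIRAK4, 6.68 on both scramble arrays, and 7.40 and 7.59 with DMSO. S100A8, which pairs with S100A9 as calprotectin, had 9.80 and 11.48 with shIRAK4, 7.70 and 7.92 with scramble, and 4.86 and 5.14 with DMSO. S100A8 thus lay lowest in DMSO cells, not in scramble cells, and its rise over scramble (2.83 ± 0.60, adjusted p = 0.00817) was no longer called without shIRAK4 replicate 2, without either scramble array, or with the Capan1 arrays alone. SAA1 is nearly identical in sequence to SAA2, so signal may be shared between them.

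The 9 tested members that did not pass mark the edge of the pattern, and those named here were chosen after their values were seen. The T cell chemokine CCL5 averaged 9.76 with shIRAK4 against 7.35 with scramble, a difference of 2.41 ± 0.89 (adjusted p = 0.115). LCN2, an iron-siderophore binding protein, was close to the top of the scale in both groups, at means of 14.28 with shIRAK4 and 13.96 with scramble. VCAM1, an adhesion molecule, averaged 8.37 with shIRAK4 against 8.72 with scramble. In DMSO cells VCAM1 stood at 6.71, below both hairpin groups.

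Short stretches of promoters are shown for 7 of the inflammatory genes that rose and for the feedback inhibitors NFKBIA and TNFAIP3, because each holds a match to a kB-type sequence close to its start site. The sequences are those of RefSeq on GRCh38.p14, written 5′ to 3′ on the strand of the gene, and the capitals mark matches, on either strand, to a kB-type motif of GGG, any 2 bases and TTTCC. CCL20, CXCL1, LTB, UBD, NFKBIA and TNFAIP3 were named by rule, and CXCL2, CXCL6 and IL32 were chosen after their values and sequences were seen.
CCL20, chr2:227813743-227813792, plus strand: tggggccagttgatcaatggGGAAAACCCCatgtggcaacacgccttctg
CXCL1, chr4:73869294-73869343, plus strand: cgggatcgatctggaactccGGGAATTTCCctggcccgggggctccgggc
CXCL2, chr4:74099244-74099293, minus strand: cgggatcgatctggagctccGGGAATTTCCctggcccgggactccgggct
CXCL6, chr4:73836568-73836617, plus strand: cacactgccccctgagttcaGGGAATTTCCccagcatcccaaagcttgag
LTB, chr6:31582482-31582531, minus strand: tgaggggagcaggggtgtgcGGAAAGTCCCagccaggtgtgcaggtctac
UBD, chr6:29559756-29559805, minus strand: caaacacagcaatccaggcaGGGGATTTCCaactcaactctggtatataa
IL32, chr16:3065284-3065333, plus strand: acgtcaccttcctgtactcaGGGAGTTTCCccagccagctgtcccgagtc
NFKBIA, chr14:35404801-35404850, minus strand: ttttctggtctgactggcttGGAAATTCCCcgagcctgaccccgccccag
TNFAIP3, chr6:137867172-137867233, plus strand: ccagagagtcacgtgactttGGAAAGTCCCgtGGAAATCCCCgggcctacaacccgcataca

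Counted from the start site, matches lay from -99 (IL32) to -53 (UBD), and TNFAIP3 held 2 of them, at -67 and -55, which do not overlap. Of the 27 risen list members with a promoter in the RefSeq table, 9 held a match in the promoter window (33.3%), which also included CXCL5 and BIRC3. The list was drawn up as inflammatory and NF-kB targets, and members that did not rise were not counted, so this share says nothing about the rise. These 9 are also among the 22 risen genes with a match in the share that follows. Among genes with a promoter in the table, the share was 7.46% of 295 genes that rose, 3.61% of 249 that fell and 3.22% of 7201 tested, and 1.91% of all 35116 promoters held one. A match is a description of the letters, and its absence elsewhere concerns this window only.

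Among the shIRAK4, scramble and DMSO groups, the neutrophil chemokines CXCL2 and CXCL6 and the cytokine IL32 were lowest in scramble cells. CXCL2 was at 7.89 and 8.26 with shIRAK4 against 4.60 and 5.51 with scramble, CXCL6 at 7.80 and 8.22 against 5.30 and 5.35, and IL32 at 9.30 and 9.86 against 7.55 and 7.51. All rose, and the arrays of the groups did not overlap. DMSO levels were 7.93 and 7.69 for CXCL2, 6.96 and 6.94 for CXCL6, and 10.70 and 10.43 for IL32, above scramble in each case (scramble minus DMSO adjusted p = 0.0033, 3.29e-05 and 4.68e-06). The shIRAK4 level was above DMSO for CXCL6 (adjusted p = 0.00223), below it for IL32 (adjusted p = 0.0452) and did not differ from it by the test for CXCL2 (adjusted p = 0.794).

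Interleukin-1 itself was among the pathway genes that rose. IL1A had log2 levels of 7.31 and 7.18 on the shIRAK4 arrays and was detected on neither scramble array (mean 4.81), at least 4.27-fold higher with shIRAK4 (adjusted p = 1.12e-04). IL1B had 6.59 and 6.19 with shIRAK4 and again no detected scramble array (mean 4.63), at least 2.36-fold higher (adjusted p = 3.56e-06). DMSO cells had 7.59 and 7.73 for IL1A and 6.63 and 6.61 for IL1B, so both cytokines were low only in the scramble group of these 3. TNF, chosen after its values were seen, averaged 6.53 with shIRAK4 against 4.49 with scramble, was at least 2.59-fold higher, and stood at 7.77 in DMSO cells.

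Of the 38 interleukin-1 and Toll-like receptor signalling genes in the table, 22 entered the test, 4 rose and 1 fell, with a median difference of 0.13. Of the 4 rises, IL1A, IL1B and TLR5 entered through shIRAK4 alone and so had to be higher there, and among the 17 genes detected in both groups 1 rose and 1 fell. Besides the 2 cytokines, IRAK3, the kinase-dead family member that restrains the pathway, was at 6.86 and 6.99 with shIRAK4 against 5.79 and 5.48 with scramble (1.29 ± 0.20, adjusted p = 5.98e-04). TLR5, the flagellin receptor, had a mean of 5.75 with shIRAK4 and was not detected with scramble, at least 1.51-fold higher (adjusted p = 0.00853). UBE2N, the ubiquitin-conjugating enzyme that works with TRAF6, was the one that fell, at 8.90 and 9.03 with shIRAK4 against 9.46 and 9.71 with scramble (-0.62 ± 0.17, adjusted p = 0.032). The core of the pathway did not pass: MYD88 averaged 7.69 with shIRAK4 and 7.98 with scramble (adjusted p = 0.389), MAP3K7 7.39 and 7.47 (adjusted p = 0.839), and IRAK2 9.65 and 8.91 (adjusted p = 0.16). The decoy receptor IL1R2 was at 6.20 and 7.68 with shIRAK4 against 7.31 and 7.62 with scramble (adjusted p = 0.377), so its groups overlapped, and the cytokine IL18 differed by 0.36 ± 0.14 (adjusted p = 0.122).

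Feedback inhibitors of NF-kB rose with its targets. Of 19 tested NF-kB subunits and regulators, 4 rose and none fell (median 0.30). NFKBIA, the inhibitor that holds NF-kB in the cytoplasm, was at 13.58 and 13.05 with shIRAK4, 11.99 and 12.12 with scramble and 13.25 and 13.32 with DMSO (1.26 ± 0.26 over scramble, adjusted p = 0.00644). TNFAIP3 (A20), a ubiquitin-editing brake on the pathway, was at 8.51 and 7.51 against 6.41 and 6.76 (adjusted p = 0.0348). Its partner TNIP1 was at 10.35 and 10.31 against 9.13 and 9.24 (adjusted p = 0.0173), and the kinase IKBKE at 7.43 and 6.94 against 6.50 and 6.28 (adjusted p = 0.0105). No shIRAK4 level of the 4 differed from DMSO by the test, and all 4 scramble levels were below DMSO by it. The count of 4 fell to 0 without shIRAK4 replicate 1 and to 1 without either scramble array.

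**Figure D2:**
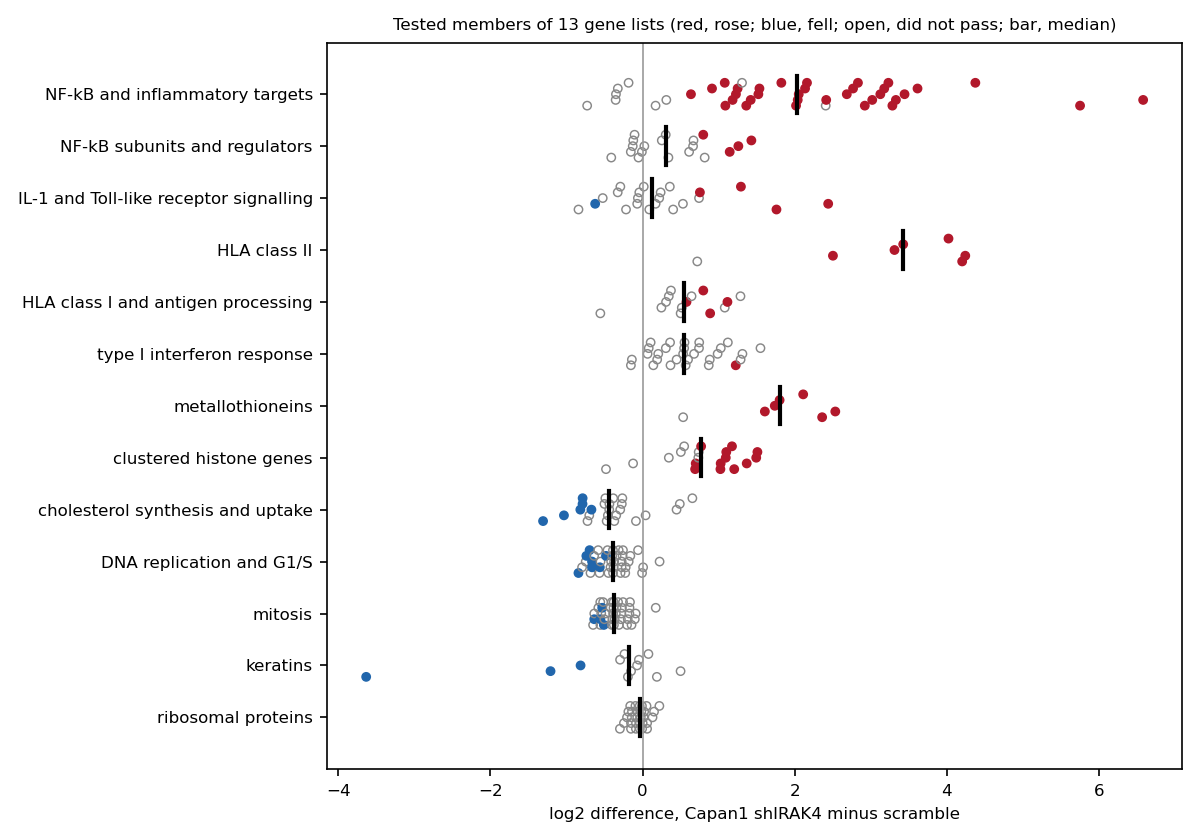
Log2 difference, shIRAK4 minus scramble in Capan1, for each tested member of 13 gene lists. Filled red points rose, filled blue points fell, open points did not pass the test, and the black bar is the median of the tested members: 2.03 for inflammatory and NF-kB targets, 3.43 for HLA class II and -0.04 for ribosomal proteins.

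HLA class II genes rose past both scramble and DMSO. Class II molecules present peptides to CD4+ T cells and are made mainly by antigen-presenting cells, with CD74 as the invariant chain and HLA-DM as the peptide-loading chaperone. Of the 14 listed genes that the deposited file holds, 7 entered the test, 4 of them through shIRAK4 alone. In all, 6 rose, and the median difference was 3.43. Of the 3 detected in both groups, 2 rose. HLA-DRA was at 10.57 and 11.37 with shIRAK4, 6.98 and 6.92 with scramble and 8.74 and 8.85 with DMSO, so the 3 groups were separate. It lay 4.02 ± 0.40 over scramble (adjusted p = 1.01e-05) and 2.17 over DMSO (adjusted p = 0.00222). HLA-DMB had 9.09 and 10.08 with shIRAK4, 5.15 and 5.62 with scramble and 6.56 and 6.68 with DMSO. HLA-DPA1 had 8.23 and 9.49 with shIRAK4 and was detected on no scramble array (mean 4.62), at least 13.1-fold higher (adjusted p = 9.77e-05). HLA-DRB4 had 8.06 and 9.35 with shIRAK4 against 5.01 and 5.55 with scramble, and signal among HLA-DRB genes may be shared because of their sequence similarity. All 6 lay above DMSO by the test as well, as did 155 of the 454 genes that rose and 6.92% of all tested genes. That test shares the shIRAK4 arrays with the choice of the 6, so it is a description. For all 6 the DMSO mean fell between the hairpin groups, nearer scramble. The count of 6 was 3 with the 8 hairpin arrays alone. Beside it, the summed level of the 15 immune markers was 904 to 1031 with shIRAK4, 618 to 639 with scramble and 1835 to 1887 with DMSO, with LYZ higher with shIRAK4 than scramble (1.97 ± 0.33, adjusted p = 0.00138) and PTPRC undetected. Their part in the result was not tested.

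Class I genes rose less. Of 14 tested genes of class I and antigen processing 4 rose and none fell (median 0.55). HLA-F was at 9.53 and 9.62 with shIRAK4 against 8.53 and 8.39 with scramble, HLA-E at 10.26 and 10.51 against 9.53 and 9.46, and HLA-G at 6.89 and 6.87 against 6.05 and 6.11. Adjusted p-values of these genes ran from 0.00541 for HLA-E to 0.0203 for HLA-F, and the DMSO means of all 4 that rose lay above their shIRAK4 means. Of the 4, 2 were called without shIRAK4 replicate 2, 1 without scramble replicate 1 and none without scramble replicate 2. Type I interferon response genes were mostly positive, 27 of 29, with a median of 0.55, but only EPSTI1 passed (1.22 ± 0.33, adjusted p = 0.0336).

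Large rises outside these lists included PIGR and the DUOX2 pair. PIGR, the receptor that carries IgA across epithelia, was at 9.93 and 10.70 with shIRAK4, 5.82 and 5.27 with scramble and 7.48 and 7.55 with DMSO, a rise of 4.77 ± 0.59 (adjusted p = 9.77e-05). DUOX2, which makes hydrogen peroxide at epithelial surfaces, and its maturation factor DUOXA2 were detected with shIRAK4 and not with scramble. DUOXA2 averaged 9.18 against 4.85 and was at least 16.4-fold higher (adjusted p = 0.00178), and DUOX2 averaged 8.39 against 4.61 and was at least 9.45-fold higher (adjusted p = 0.00182). Both lay close to their level in DMSO cells, where DUOXA2 had 9.37 and 8.94 and DUOX2 8.46 and 8.36. The matrix metalloproteinase MMP7, a marker of pancreatic duct neoplasia, had 12.15 and 12.65 with shIRAK4 against 9.71 and 9.78 with scramble (2.65 ± 0.28, adjusted p = 1.8e-05). The stem cell surface marker PROM1 had 11.31 and 10.15 against 8.58 and 8.66, and the tight junction protein CLDN1 11.36 and 11.28 against 9.68 and 9.69. GPX2, a gastrointestinal glutathione peroxidase, had 11.23 and 12.68 against 9.55 and 9.27 (adjusted p = 0.00536). Of 11 tested mucins and trefoil factors none rose and 1 fell.

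The trypsinogens, precursors of a digestive protease, also rose. The trypsinogen genes PRSS2 and PRSS1, whose sequences are close enough to share signal, were at 13.18 and 12.65 (PRSS2) and 8.60 and 8.72 (PRSS1) with shIRAK4 against 10.00 and 10.25 and 6.28 and 6.43 with scramble. PRSS2 rose by 2.79 ± 0.25 (adjusted p = 2.34e-06), and its DMSO arrays, at 12.86 and 12.96, lay within the range of the shIRAK4 arrays. Of the other acinar and islet markers, CPA1, AMY2A, PNLIP, CTRB1, INS, GCG and SST were not detected in either group. CHGA was undetected on both arrays with shIRAK4 but not with scramble. TMPRSS2, a serine protease of the epithelial cell surface, had 10.02 and 9.06 with shIRAK4 against 7.06 and 7.08 with scramble (adjusted p = 0.00158).

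Metallothioneins, small cysteine-rich proteins that bind zinc and copper and are induced by metals through the factor MTF1, were mostly higher with shIRAK4. Of 7 tested list members, which include the zinc exporter SLC30A1, 6 rose (median 1.80). Of the 7, 2 entered through shIRAK4 alone, and among the 5 detected in both groups 4 rose. MT1X was at 10.97 and 11.79 with shIRAK4, 9.05 and 8.99 with scramble and 11.31 and 11.13 with DMSO (2.36 ± 0.47 over scramble, adjusted p = 0.00561). MT1F had 10.79 and 10.91 with shIRAK4, 8.22 and 8.41 with scramble and 10.24 and 10.27 with DMSO (2.53 ± 0.41, adjusted p = 0.00102). MT1A had 12.76 and 12.90 with shIRAK4 against 10.84 and 11.21 with scramble. For none of the 6 did shIRAK4 differ from DMSO by the test, and scramble lay below DMSO by it for all 6. Probes of these genes may share signal because the MT1 sequences are close. None of the 6 was called with the 8 hairpin arrays alone.

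Promoters of MT1X and of MT2A (MT2A chosen after its values and sequence were seen) are shown because they hold repeated metal response elements. Capitals mark matches to TGCACNC or TGCGCNC on either strand in RefSeq sequence on GRCh38.p14, 5′ to 3′ on the strand of the gene.
MT1X, chr16:56682300-56682443, plus strand: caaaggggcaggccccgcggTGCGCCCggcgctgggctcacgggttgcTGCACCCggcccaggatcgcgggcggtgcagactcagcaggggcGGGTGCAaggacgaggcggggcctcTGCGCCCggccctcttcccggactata
MT2A, chr16:56608411-56608583, plus strand: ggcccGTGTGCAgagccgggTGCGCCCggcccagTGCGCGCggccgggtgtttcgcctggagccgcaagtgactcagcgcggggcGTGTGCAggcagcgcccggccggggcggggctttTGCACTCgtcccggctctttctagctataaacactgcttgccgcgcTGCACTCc

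MT1X holds 4 matches and MT2A 6 in the stretches shown. The motif is short and common: at least 1 match was found in 29.6% of all promoters and in 39.7% of the promoters of genes that rose, against 46.0% of those of tested genes. MT2A stood at 12.77 and 13.03 with shIRAK4, 11.29 and 11.30 with scramble and 13.58 on both DMSO arrays.

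Clustered histone genes rose together, by smaller amounts. Of 19 tested genes 12 rose and none fell (median 0.77), and of the 17 detected in both groups 11 rose. HIST1H4H was at 9.46 and 9.02 with shIRAK4, 7.78 and 7.72 with scramble and 9.34 and 9.14 with DMSO (1.49 ± 0.21, adjusted p = 3.15e-04). The linker histone HIST1H1C was at 11.35 and 11.11 against 9.50 and 9.93 (adjusted p = 0.0345), HIST2H2BE at 10.19 and 9.10 against 8.22 and 8.33 (adjusted p = 0.0262), and HIST2H4A at 10.05 and 9.64 against 8.52 and 8.76 (adjusted p = 0.00411). The shIRAK4 level was above DMSO by the test for 1 of the 12, and the scramble level below DMSO for 10. Histone genes of a class are nearly identical, so their rows are not independent. The count was 2 with the 12 Capan1 arrays alone, 0 with the 8 hairpin arrays alone, 3 without shIRAK4 replicate 1, and 2 or 4 without scramble replicate 1 or 2.

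Falls were fewer at large sizes. Of 19 tested genes of squamous and surface differentiation 2 fell, SCEL and SPRR3, and 3 rose, TMPRSS2, PROM1 and CNFN (median -0.28, CNFN named after its values were seen). KRT13, a keratin of stratified squamous epithelia, was at 6.91 and 6.66 with shIRAK4 against 10.57 and 10.26 with scramble, a difference of -3.63 ± 0.48 (adjusted p = 1.67e-04). In DMSO cells KRT13 was at 4.53 and 4.49, below both hairpin groups. TMEM154, a membrane protein, was at 6.52 and 6.29 with shIRAK4 against 8.82 and 8.92 with scramble (-2.46 ± 0.12, adjusted p = 8.58e-10), with DMSO at 6.92 and 7.08. SCEL, a precursor of the cornified envelope, had 5.57 and 5.87 with shIRAK4 against 7.62 and 7.74 with scramble, and the squamous protein SPRR3 4.87 and 6.47 against 7.67 and 7.26. The stromelysin MMP10 averaged 4.85 with shIRAK4, where neither array detected it, against 6.91 with scramble, so it was at least 3.53-fold lower (adjusted p = 2.52e-07). MMP10 stood at 7.11 and 7.15 in DMSO cells, level with scramble. TH and PCDH20 also fell by 4-fold or more and are named after their values were seen. TH, tyrosine hydroxylase, averaged 4.55 with shIRAK4, where it was not detected, against 8.27 with scramble and 4.38 with DMSO. PCDH20, a protocadherin, was at 4.84 and 5.53 with shIRAK4 against 8.07 and 8.20 with scramble. In DMSO cells PCDH20 averaged 4.87, below scramble and near shIRAK4.

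Both caveolins tested were among the other falls. Caveolin-1, CAV1, the scaffold of caveolae, was at 7.48 and 8.71 with shIRAK4 against 9.87 and 9.90 with scramble (-1.79 ± 0.37, adjusted p = 0.00631), and CAV2 at 6.44 and 7.46 against 8.17 and 8.18. EMP1, an epithelial membrane protein, averaged 9.14 with shIRAK4 against 10.94 with scramble (-1.80 ± 0.37, adjusted p = 0.0064). CNN3, an actin-binding calponin, was at 8.57 and 8.01 against 9.96 and 9.87, yet DMSO cells had only 6.32 and 6.42. Of 19 tested outputs of the MAPK pathway 1 rose and 2 fell. DUSP5, a nuclear ERK phosphatase, was at 9.42 and 8.98 with shIRAK4 against 10.96 on both scramble arrays and 10.50 and 10.41 with DMSO (-1.75 ± 0.24 from scramble, adjusted p = 2.19e-04). EPHA2, an ephrin receptor, was at 7.25 and 7.11 against 8.36 and 8.34, and both DUSP5 and EPHA2 also lay below DMSO by the test. The ERK inhibitor SPRY1 rose, at 8.47 and 7.86 against 7.32 and 7.11. ANXA10, an annexin of gastric-type epithelium, had 9.86 and 9.55 with shIRAK4 against 11.26 and 11.30 with scramble and 11.57 and 11.61 with DMSO.

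**Figure D3:**
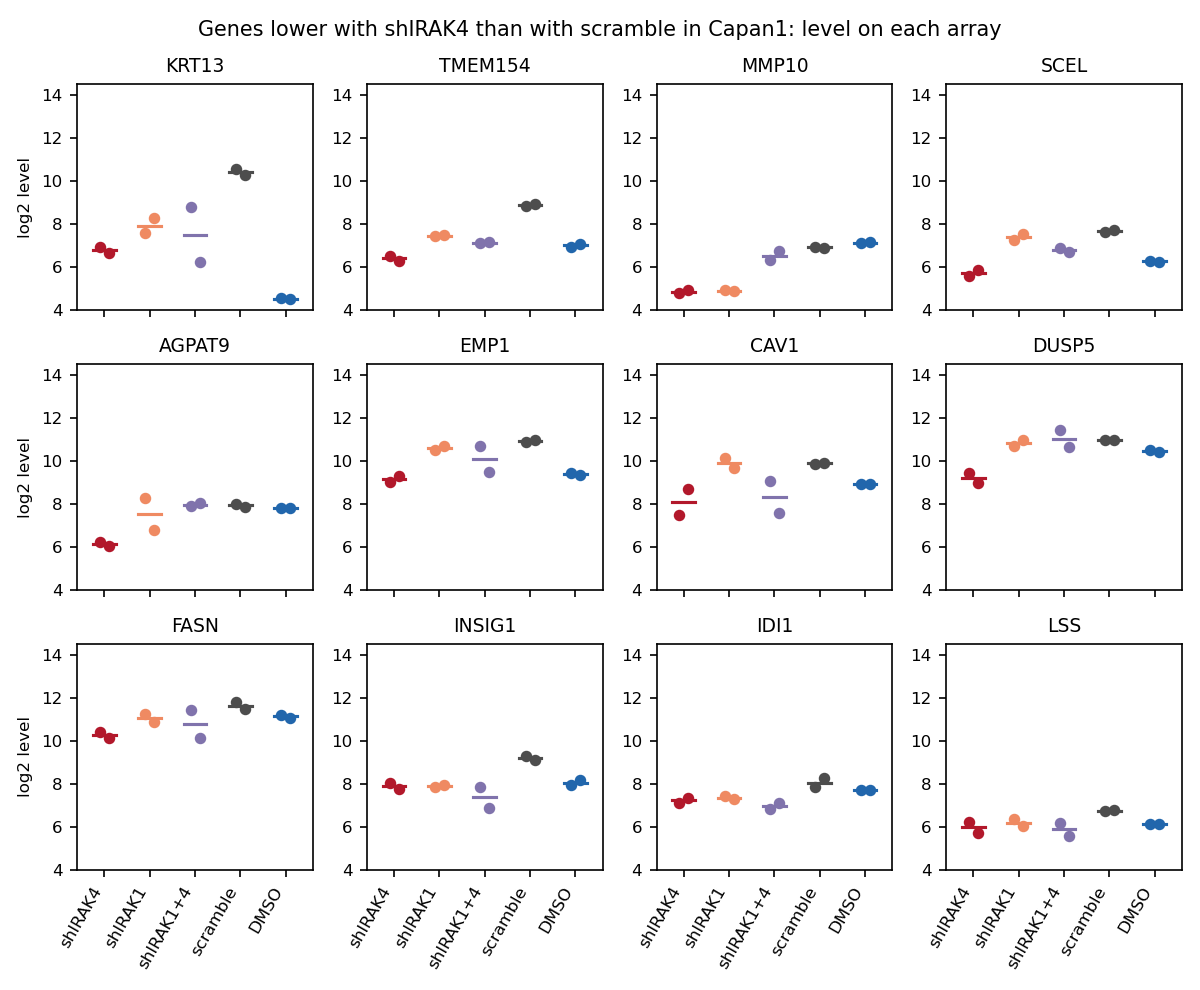
Log2 level of 12 genes that fell with shIRAK4, on each array (points) with the group mean (bar), for the same 5 Capan1 groups. KRT13 stood at 6.91 and 6.66 with shIRAK4, 10.57 and 10.26 with scramble and 4.53 and 4.49 with DMSO, while DUSP5 and AGPAT9 were lowest with shIRAK4.

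Some lipid synthesis genes fell, by small amounts. Of 25 tested genes of cholesterol synthesis and uptake, which SREBP2 controls, 6 fell and none rose, with a median of -0.44. Of the 25, 4 entered through scramble alone, and among the 20 detected in both groups 3 fell. INSIG1, the endoplasmic reticulum anchor of SCAP and a sensitive SREBP target, was at 8.03 and 7.76 with shIRAK4 against 9.31 and 9.10 with scramble (-1.31 ± 0.22, adjusted p = 0.00175). IDI1, an isoprenoid isomerase, was at 7.12 and 7.35 against 7.85 and 8.26, and LSS, lanosterol synthase, at 6.22 and 5.70 against 6.71 and 6.78. INSIG1 and LSS were each detected on 1 of 2 shIRAK4 arrays. Of 13 tested fatty acid synthesis genes 2 fell: FASN, fatty acid synthase, at 10.42 and 10.12 against 11.79 and 11.47 (-1.37 ± 0.27, adjusted p = 0.00573), and ACSL1 at 6.16 and 6.54 against 7.24 and 7.68. Among the shIRAK4, scramble and DMSO groups INSIG1 was highest in scramble cells, with a DMSO mean of 8.06. The cholesterol count was 3 with detection required on all arrays, 2 under median scaling, 1 with the 12 Capan1 arrays alone, 3 without shIRAK4 replicate 2, and 2 or 1 without scramble replicate 1 or 2.

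Proliferation genes were mostly slightly lower, with a positive difference for only 2 of 38 DNA replication and 1 of 39 mitosis genes. Of the 38 tested DNA replication genes 7 fell (median -0.39), with MCM10 at 6.58 and 7.16 with shIRAK4 against 7.71 and 7.72 with scramble and UHRF1 at 9.01 and 8.59 against 9.59 and 9.50. Of 39 tested mitosis genes 4 fell (median -0.38): CENPE was at 7.01 and 6.86 against 7.58 and 7.57, and AURKA, the spindle kinase, at 10.75 and 10.99 against 11.51 and 11.29. For the 4 mitosis genes the shIRAK4 level did not differ from DMSO by the test and the scramble level was above DMSO by it. The 7 replication genes did not share this. Scramble differed from DMSO by the test for 0 of the 7, shIRAK4 was below DMSO for 2, and the DMSO means lay on the scramble side. The counts of falls depend on the setting: under median scaling 0 of the 38 and 0 of the 39 passed, and the same 0 came from the 12 Capan1 arrays alone. The medians moved little under median scaling, to -0.38 for DNA replication and -0.34 for mitosis.

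No gene passed among 18 endoplasmic reticulum chaperones, 13 heat shock chaperones, 31 respiratory chain genes and 30 ribosomal protein genes. Medians were -0.02, -0.08 and -0.04 for the chaperones of the endoplasmic reticulum, the respiratory chain and the ribosomal proteins, and -0.32 for the heat shock chaperones, of which 2 of 13 were positive. Other lists had a few calls, beside the 4.14% of all tested genes that rose and the 3.23% that fell. Of 23 AP-1 and immediate early genes 2 rose, the stress-response gene IER3, at 12.34 and 11.98 against 10.91 and 11.08, and SGK1. Of 12 keratins 3 fell, KRT13, KRT80 and KRT7, and of 34 adhesion and junction genes 1 rose, CLDN1. Among 12 mesenchymal factors and markers ACTA2 and TPM1 rose and CAV1 and CAV2 fell. Of 25 matrix and TGF-beta target genes MMP7 rose and 4 fell, MMP10, COL4A1, PLAT and COL6A1. Of the 25, 4 entered through scramble alone and 3 through shIRAK4 alone, and among the 18 detected in both groups 1 rose and 2 fell.

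The position of the DMSO level shows how far the scramble cells stood from cells without virus. Of the 10974 genes, shIRAK4 differed from DMSO for 1435 (13.1%; 6.92% higher and 6.16% lower) and scramble differed from DMSO for 1486 (13.5%; 7.32% higher and 6.22% lower). These comparisons share arrays with the choice of the 809 genes, so the counts that follow are a description. Of the 454 genes that rose, the shIRAK4 level was above DMSO by the test for 155 and below it for 19, while the scramble level was below DMSO for 213 and above it for 7. Of the 355 that fell, the shIRAK4 level was below DMSO for 96 and above it for 12, while the scramble level was above DMSO for 143 and below it for 4. For 182 of the rises and 128 of the falls, scramble alone differed from DMSO by the test. Neither group differed from DMSO for 98 of the rises and 119 of the falls. For the remaining changed genes the shIRAK4 level differed from DMSO, with or without scramble.

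By mean level, DMSO lay on the shIRAK4 side of the midpoint between the hairpin groups for 444 of the 809 changed genes (54.9%), against 47.9% of all tested genes. The share grew with the size of the change, to 155 of 241 rises of 2-fold or more (64.3%) and 45 of 65 rises of 4-fold or more (69.2%), and to 5 of the 6 falls of 4-fold or more. The gene groups differed in this. DMSO lay on the shIRAK4 side for 24 of the 33 inflammatory genes that rose, 6 of the 6 metallothioneins, 11 of the 12 histone genes and 4 of the 4 class I genes. The same held for 4 of the 4 mitosis genes that fell. It held for 0 of the 6 class II genes, 0 of the 7 DNA replication genes that fell and none of the changed MAPK outputs. The share over the changed genes was 48.6% or 40.9% without shIRAK4 replicate 1 or 2, so it fell with either of these arrays left out. It was 63.5% or 64% without scramble replicate 1 or 2.

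**Figure D4:**
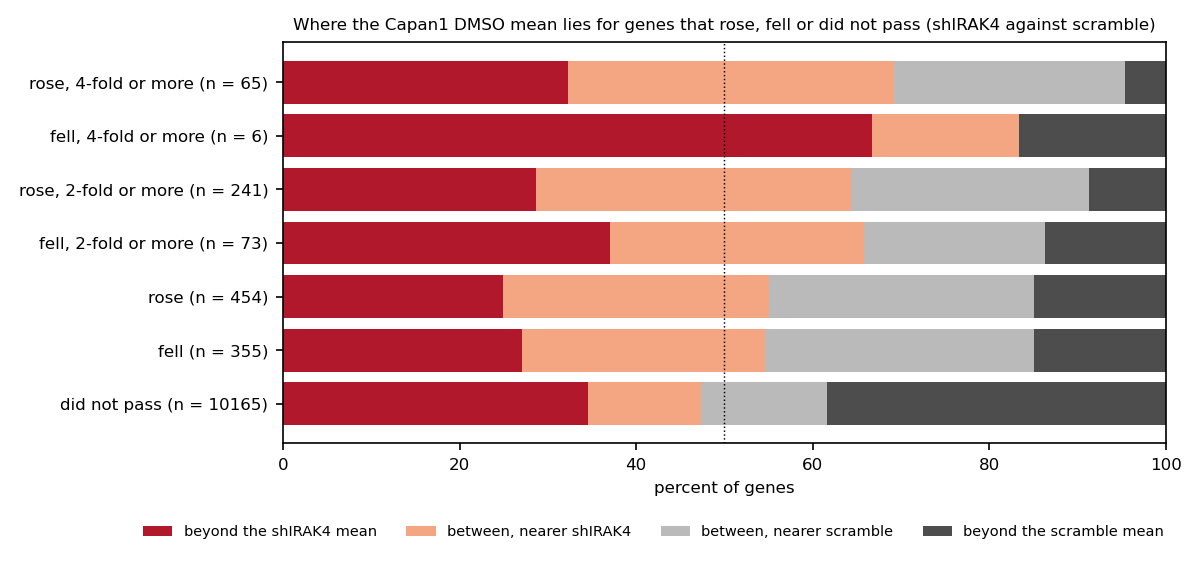
Percent of genes (horizontal axis) whose Capan1 DMSO mean lay beyond the shIRAK4 mean, between the means and nearer shIRAK4, between and nearer scramble, or beyond the scramble mean, for genes that rose, fell or did not pass, with 50% dotted. Red and light red together make 69.2% of the 65 rises of 4-fold or more and 55.1% of all 454 rises.

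The other hairpin of the series, shIRAK1, received the same viruses and selection, and setting shIRAK4 against it leaves the scramble arrays out. IRAK1 itself was at 9.56 and 8.98 with shIRAK1 and at 9.65 and 9.57 with shIRAK4. IRAK4 was detected on no array of either group, so the target levels separate these groups little. The test of shIRAK4 against shIRAK1 called 671 of 10926 genes (6.14%), 366 higher with shIRAK4 (3.35%) and 305 lower (2.79%). Of 41 inflammatory and NF-kB targets tested 27 were higher with shIRAK4 and 1 was lower, and all 7 class II genes tested were higher. Genes entered here through shIRAK4 or shIRAK1, and these counts were not split by detection in both groups. A member that entered through shIRAK4 alone was favoured to be higher there. CCL2 was at 12.04 and 11.52 with shIRAK4 against 6.17 and 5.91 with shIRAK1 (5.74 ± 0.37, adjusted p = 1.33e-07). S100A8 was at 9.80 and 11.48 against 5.67 and 6.04, CCL20 at 11.33 and 11.56 against 7.64 and 6.53, HLA-DMB at 9.09 and 10.08 against 5.80 and 5.64, and PIGR at 9.93 and 10.70 against 6.15 and 6.89. The groups did not overlap for any of these 5. IL1A and IL1B did not share this order: IL1A was at 7.31 and 7.18 with shIRAK4 against 8.85 and 7.23 with shIRAK1 (adjusted p = 0.136), and IL1B was lower with shIRAK4, at 6.59 and 6.19 against 7.31 and 6.91 (-0.72 ± 0.16, adjusted p = 0.0141).

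Genes lower with shIRAK4 than with shIRAK1 included CALB2, the calcium-binding protein calretinin, at a mean of 5.94 against 8.76 (-2.82 ± 0.32, adjusted p = 8.37e-05), and SLC37A2, a sugar phosphate transporter, at 6.83 and 5.95 against 8.48 and 8.05. The receptor kinase AXL was at 7.86 and 7.93 against 10.17 and 9.54, and CYR61, a YAP target of the matrix, at 6.50 and 7.18 against 9.44 and 8.02. The cystatin CST1 was called too, but its shIRAK4 arrays, at 8.82 and 5.05, lay further apart than the difference of 2.81 between the groups. The call count was 22 with the 8 hairpin arrays alone and 172 without shIRAK1 replicate 1.

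Against scramble, shIRAK1 gave 154 calls of 10696 genes (1.44%; 0.795% higher and 0.645% lower) and shIRAK1+4 gave 487 of 10663 (4.57%; 1.9% higher and 2.66% lower), but these share the scramble arrays with the 809 calls above, so levels alone are set side by side. The median level of the 42 tested inflammatory genes was 8.78 with shIRAK4, 6.85 with shIRAK1, 7.44 with shIRAK1+4, 6.57 with scramble and 7.91 with DMSO. The 2 arrays of the double knockdown lay apart. CCL20 was at 7.38 and 11.10, PIGR at 5.94 and 9.09, HLA-DPA1 at 4.59 and 7.26 and DUOX2 at 4.62 and 8.33 on shIRAK1+4 replicates 1 and 2, so replicate 2 was the higher for all 4.

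In Panc1, the same hairpin pair gave 1215 calls of 10201 tested genes (11.9%; 6.66% higher and 5.25% lower), from arrays not shared with Capan1. The difference between the shIRAK4 effects of the lines was tested directly and passed for 920 of 12150 genes (7.57%), with the Capan1 effect the more positive for 443 (3.65%) and the more negative for 477 (3.93%). Of 42 inflammatory and NF-kB targets tested 26 were more positive in Capan1 and none more negative, and of 7 class II genes 6 were more positive, although many of these genes were not detected in Panc1. CCL20 was detected in both lines. It was at 8.07 and 5.95 with shIRAK4 in Panc1 against 8.12 and 8.10 with scramble there, so the Capan1 effect exceeded the Panc1 effect by 6.85 ± 1.13 (adjusted p = 0.00156). IL8 was at 9.18 and 6.68 with shIRAK4 in Panc1 against 8.93 and 8.95 with scramble (difference of effects 3.78 ± 0.69, adjusted p = 0.00329). EDN1, the vasoconstrictor endothelin-1, was at 7.43 and 8.11 with shIRAK4 against 5.23 and 6.01 with scramble in Capan1. In Panc1 it was at 9.45 and 8.80 against 10.39 and 10.20 (difference of effects 3.32 ± 0.41, adjusted p = 1.20e-04).

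EGR1, an immediate early transcription factor, differed between the lines through Panc1: it was at 7.77 and 6.83 with shIRAK4 there against 10.28 and 10.35 with scramble, while in Capan1 the groups overlapped, with means of 8.73 against 8.51. In the other direction, SSBP2 was at 5.73 and 6.07 with shIRAK4 against 6.81 and 6.49 in Capan1, but at 8.34 and 8.02 against 6.86 and 7.13 in Panc1. C20ORF100 went the same way, at 9.35 and 9.13 against 10.18 and 10.24 in Capan1 and 10.68 and 10.52 against 9.49 and 9.62 in Panc1. ZNF185, an actin-associated LIM protein, fell in Capan1, at 7.19 and 7.07 against 8.55 and 8.72, and in Panc1 was at 8.50 and 9.51 against 8.44 and 8.16. Of 25 cholesterol genes tested between the lines, 4 were more positive in Capan1 and 1 more negative, beside 3.65% and 3.93% of all genes. INSIG1 and IDI1 did not pass this test. INSIG1 differed by -1.31 ± 0.22 in Capan1 and its Panc1 difference was -1.57 (adjusted p = 2.16e-04), IDI1 by -0.82 and -1.27 (adjusted p = 7.88e-05), and the differences between the lines did not pass (adjusted p = 0.672 and 0.253). The between-line count was 378 under median scaling, which moved the median difference over all genes to -0.15, and 400 to 454 without any 1 of the 4 scramble arrays.

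**Figure D5:**
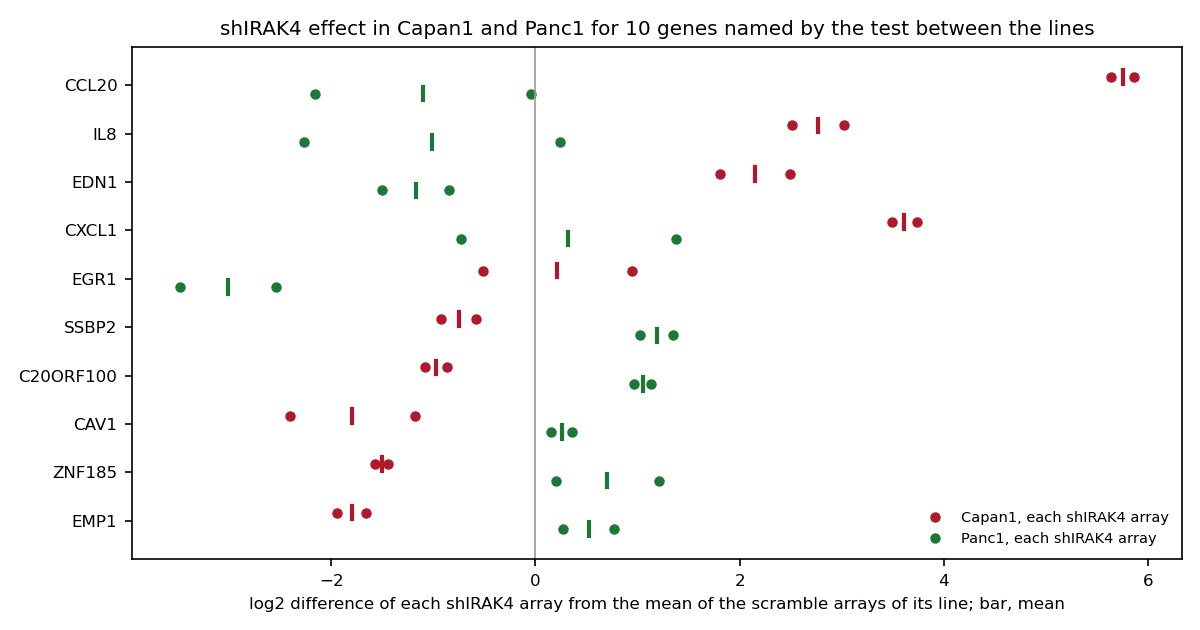
Log2 difference of each shIRAK4 array (points) from the mean of the scramble arrays of its own line, with the mean as a bar, for Capan1 (red, upper) and Panc1 (green, lower) and the 10 genes named by the test between lines. The Capan1 points of CCL20 lie at the far right, and those of EGR1 lie on both sides of 0.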

How the data were processed

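The arrays are Illumina bead arrays hybridised with cRNA of the 2 lines. The authors deposited 1 log2 signal intensity per gene and array in a table named non-normalized, with a detection p-value for each. GenomeStudio 2011 is the export tool, per the submitters' processing notes. How probes were combined and whether background was subtracted is not given in the sources used here. A second deposited table of normalized log2 values served only as an alternative.

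Signals were returned to the linear scale, background-corrected by normexp (limma 3.58.1, R 4.3.3) with an offset of 16, quantile-normalized over 24 arrays and log2-transformed. The background's mean and SD came from 26514 rows whose detection p-values are whole multiples of 1 in 770 (within 0.001 of a step) and so behave as 1 probe. The other 8081 rows hold several probes, and bounds are not given for them because their detection p-value does not track the signal. Of the 809 called genes, 200 are such rows, and 315 such rows with a mean level over 8 did not enter the test.

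One limma model with 12 group means was fitted to 24 arrays (12 residual and 4.88 prior degrees of freedom), with moderation over the genes entering each comparison and Benjamini-Hochberg adjustment at 0.05. The fit was checked on simulated data. It pools the spread of all groups, and a lone array left by omission is assumed to vary like the others. The number of arrays limits precision.

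Where a gene was not detected in 1 group, "at least N-fold" is the mean of the other group over, per array, the higher of the detection limit and the gene's own signal. Genes are named by a rule: the 12 largest rises and falls detected in both groups, the 5 largest by bound each way, up to 4 per list, the pathway members tested, and the 5 largest each way against shIRAK1 and between lines. Members, lists and tests were chosen with earlier results of these data known. Symbols are those of the file, and 7711 of the tested rows carry a current RefSeq symbol, 1416 a single older one, 69 several and 1778 no match. Same-numbered shIRAK4 and scramble arrays did not deviate together (r = 0.0076), so the main model has no replicate block. Panc1, inhibitor and other arrays enter the fit to estimate spread. Some results are not reported here.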

Additional observations from a re-analysis of the deposited data

Results flagged for a closer look

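The shIRAK4 effect differed between Capan1 and Panc1, by the test of the difference itself, for 72 of the named genes. Over all genes 920 of 12150 passed this test (7.57%). The named genes were chosen by their values on these same arrays, some by this very test, so the 72 are a description. For 34 of the 72 no effect was tested in Panc1. The 38 with an effect measured in both lines are given here as the Capan1 effect minus the Panc1 effect on the log2 scale. Among chemokines and NF-kB genes the difference was 7.24 for CCL2 (6.58 in Capan1 and -0.66 in Panc1), 6.85 for CCL20 (5.75 and -1.10), 4.01 for LTB (3.18 and -0.84), 3.78 for IL8 and 3.29 for CXCL1 (3.61 and 0.32). It was 2.02 for TNFAIP3, 2.01 for NFKBIA, 1.60 for TNIP1, 1.67 for IRAK2, 1.03 for IRAK3 and 0.81 for IL18.

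HLA-DRA differed by 4.69 (4.02 in Capan1 and -0.67 in Panc1), MMP7 by 3.81 (2.65 and -1.16), EDN1 by 3.32, CLDN1 by 1.97, EPSTI1 by 1.93, ADM by 1.19 and TPM1 by 1.14. Of the immediate early genes EGR1 differed by 3.23, SGK1 by 2.01 and IER3 by 0.92. Histone genes differed by 2.16 (HIST1H1C), 1.80 (HIST2H4A), 1.68 (HIST2H2BE) and 1.64 (HIST1H4H), and metallothioneins by 2.15 (MT1E) and 1.60 (MT1A). In the other direction, EMP1 differed by -2.32 (-1.80 in Capan1 and 0.52 in Panc1), ZNF185 by -2.21, CAV1 by -2.05 (-1.79 and 0.26), C20ORF100 by -2.02, SSBP2 by -1.94, AGPAT9 by -1.86 (-1.81 and 0.05) and CAV2 by -1.48. Smaller negative differences were -1.38 for KRT7, -1.30 for CENPE, -0.80 for POLA2 and -0.75 for AURKA. HLA-DRA, LTB, MMP7 and EPSTI1 were detected on 1 of the 2 shIRAK4 arrays in Panc1, and KRT7 was detected on neither scramble array there. Several inflammatory genes were uneven between the Panc1 shIRAK4 arrays. CCL20 was at 8.07 and 5.95, IL8 at 9.18 and 6.68, and CXCL1 at 8.78 and 6.67. LTB was at 7.76 and 5.51, and CCL2 at 12.26 and 10.48. Their Panc1 effects are thus means over arrays that lay apart.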

How the results depend on the processing

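Every alternative kept the sign of the 101 named genes that passed; 22 passed under every alternative in which they were tested (CCL2, IL1B and MMP10, for example, do not enter where detection on all arrays is required) and 46 in every omission of 1 array, and the cause of the losses was not tested. Counts for shIRAK4 against scramble, 809, became 425 under median scaling, 293 with the 12 Capan1 arrays, 77 with the 8 hairpin arrays, 520 with array weights, 89 with a change above 1.5-fold required, and 260 to 779 on leaving out 1 array. The 282 changed genes that also differed between shIRAK4 and DMSO became 140 under median scaling, 185 with no detection filter, 98 with the 12 Capan1 arrays, 10 above 1.5-fold, and 103 to 374 on leaving out 1 array, and had no value with the hairpin arrays alone. The share of changed genes with DMSO on the shIRAK4 side, 54.9%, became 59.7% with the 12 Capan1 arrays, 63.6% with the hairpin arrays, 67.4% above 1.5-fold, and 40.9% to 64% on leaving out 1 array. The 671 calls against shIRAK1 became 349 under median scaling, 173 with the 12 Capan1 arrays, 22 with the hairpin arrays, 225 with array weights, 63 above 1.5-fold, and 172 to 877 on leaving out 1 array. The 920 calls between lines became 378 under median scaling, 466 with detection on all arrays, 104 above 1.5-fold, and 400 to 1012 on leaving out 1 array. With the replicate number as a block, which these arrays share only as a number, the count against scramble was 927. Crossing the numbers for shIRAK4 against shIRAK1, whose same-numbered arrays correlated at -0.1322, gave 769. Chosen after seeing the data were that crossed block, a background from median and MAD, and moderation over all rows, which gave 1024. Signals near background limit IRAK4 itself and the genes given as bounds.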

Other observations

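The Capan1 inhibitor arrays enter none of the comparisons above, and their levels are given here as values. In cells given 10 uM of the inhibitor for 24 h, CCL20 was at 7.10 and 6.85, LTB at 4.76 and 4.60, CCL2 at 4.91 and 5.23, and IL1A was detected on neither array. The tyrosine hydroxylase gene TH averaged 8.28 on those arrays, 4.55 on the shIRAK4 arrays, 8.27 on the scramble arrays and 4.38 on the DMSO arrays. KRT13 was at 10.14 and 10.07 with the inhibitor, close to its scramble level of 10.57 and 10.26.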
